A study of Mus musculus with 12 samples.

Results

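NF-κB is a family of dimeric transcription factors, and its subunits, its regulators and a set of its inducible targets were followed here as 35 genes in the colon of young mice. The 35 genes were chosen by name from a deposited table of transcript abundances in which 35688 genes are listed, and the transcripts of each gene were summed. They comprise 5 subunits, 6 IκB proteins, 7 kinases, 8 feedback regulators and signalling adaptors, and 9 targets. All 35 passed the filter on low values, a value over 1 in at least 5 libraries, and were tested among 13561 genes. None of the 35 passed an adjusted p under 0.05 between the genotypes, and neither did any other of the 13561 genes.

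Bulk RNA came from full-thickness colon of mice aged 2 weeks, 1 mouse per sample. Both genotypes are labelled Il10-/-, for the gene of an anti-inflammatory cytokine, so there is no wild-type group, and one of them, Il10-/- Tnfr1-/-, is also labelled as lacking TNF receptor 1, which is encoded by Tnfrsf1a. The comparison used 5 Il10-/- mice (replicates 1, 2, 3, 5 and 6) and 6 Il10-/- Tnfr1-/- mice (replicates 1 to 6). How either allele was made, and the strain, litter and sex of the mice, are not stated in the labels.

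In resting cells IκB proteins hold NF-κB dimers in the cytoplasm. Ligands such as TNF, acting through TNF receptor 1, and bacterial products, acting through Toll-like receptors, activate the IκB kinase complex. The complex marks IκB for degradation, the dimers enter the nucleus, and among the genes they induce are their own inhibitors, such as Nfkbia and Tnfaip3. In the intestine the pathway is known both for protecting the epithelium from cell death and for driving inflammatory gene expression in immune and stromal cells.

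Several members carry the NF-κB motif close to their start. RefSeq promoter windows on GRCm38.p6, from 250 bases before to 50 bases after a transcript start, were found for 28 of the 35 genes. The NF-κB (κB) consensus, searched on both strands, occurred in windows of 13 of those 28 (46.4%), against 1769 of the 27025 genes in the promoter table (6.55%). A gene was counted if any of its windows held a match. The members were chosen as genes of the NF-κB pathway and its targets, so the choice itself could raise their share. The 100 bases before the start are shown for 7 of the 13, as 2 IκB or subunit genes (Nfkbia, Nfkb2), the feedback regulators with a match (Tnfaip3, Tnip1, Tnip3), the adaptor Traf3 and the target Irf1. Each is written 5′ to 3′ on the gene's own strand and ends at the base before the start, with every κB match in capitals.
Nfkbia: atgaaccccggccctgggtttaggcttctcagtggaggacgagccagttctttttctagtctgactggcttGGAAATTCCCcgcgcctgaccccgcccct
Nfkb2: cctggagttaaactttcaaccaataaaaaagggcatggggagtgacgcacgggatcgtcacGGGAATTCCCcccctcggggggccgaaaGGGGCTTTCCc
Tnfaip3: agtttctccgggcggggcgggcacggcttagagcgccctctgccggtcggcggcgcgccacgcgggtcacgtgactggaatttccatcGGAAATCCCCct
Tnip1: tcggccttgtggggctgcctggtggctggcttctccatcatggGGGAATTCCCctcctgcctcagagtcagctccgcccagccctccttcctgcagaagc
Tnip3: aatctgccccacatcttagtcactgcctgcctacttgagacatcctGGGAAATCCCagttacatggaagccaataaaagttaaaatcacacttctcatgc
Traf3: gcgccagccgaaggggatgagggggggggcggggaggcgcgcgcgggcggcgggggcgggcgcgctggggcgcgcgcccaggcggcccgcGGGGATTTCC
Irf1: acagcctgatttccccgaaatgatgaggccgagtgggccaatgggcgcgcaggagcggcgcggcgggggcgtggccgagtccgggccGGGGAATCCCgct
These stretches lie at chr12:55492648-55492747 (minus strand) for Nfkbia, chr19:46304637-46304736 (plus) for Nfkb2 and chr10:19015411-19015510 (minus) for Tnfaip3. Those of Tnip1, Tnip3, Traf3 and Irf1 lie at chr11:54962941-54963040 (minus), chr6:65590298-65590397 (plus), chr12:111166270-111166369 (plus) and chr11:53769914-53770013 (plus). The Nfkb2 stretch shown carries 2 matches, whose first bases lie 39 and 11 bases before the start. Nfkb2 also has windows of other starts, at chr19:46305445-46305744 and chr19:46305680-46305979, each with 1 match. The single match of Nfkbia begins 29 bases before its start. The other genes with a match in a window were Bcl3, Map3k7, Nfkbid, Rel, Sod2 and Tnfaip2. The letters are a description of the window only and show no binding.

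Values are the authors' length-scaled transcript abundances, summed by gene, and are called abundance here. They are not counts, so the depth behind each value is unknown. Per-library sums ran from 804109 to 1378971, and the share of transcripts listed at 0 ran from 41.7% to 55.1%. Fold changes are log2 values of Il10-/- Tnfr1-/- minus Il10-/-, fitted by limma on log2(abundance + 0.5) with their standard error (SE), and adjusted p-values are Benjamini-Hochberg over all genes tested. As a check of the labels, Tnfrsf1a ran from 30.6 to 78.1 in Il10-/- (mean 47.9 ± 18.5, SD, n = 5) and from 12.0 to 17.0 in Il10-/- Tnfr1-/- (mean 14.8 ± 2.34, SD, n = 6), with no overlap. Its log2 fold change was -1.60 ± 0.22 (limma adjusted p = 0.125). Il10, which both genotypes are labelled as lacking, was listed in every library, from 9.06 to 22.9 in Il10-/- and from 3.27 to 7.23 in Il10-/- Tnfr1-/- with no overlap (log2 fold change -1.44 ± 0.28, limma adjusted p = 0.536). Which part of Il10 or Tnfrsf1a the alleles alter is not stated in the labels. Tnfrsf1a did not pass the threshold, and no gene did (0% of those tested), although 4.74% of genes were higher and 3.6% lower at an unadjusted p under 0.05. Of the 35 members, 1 was higher at that unadjusted threshold (Traf3) and none was lower. The members' median log2 fold change was -0.05, against 0.05 over all genes tested. The log2 fold change was positive for 14 members (40%) and negative for 21, against 55.46% positive over all genes tested. The limma adjusted p of the members ran from 0.536 to 0.994.

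**Figure D1:**
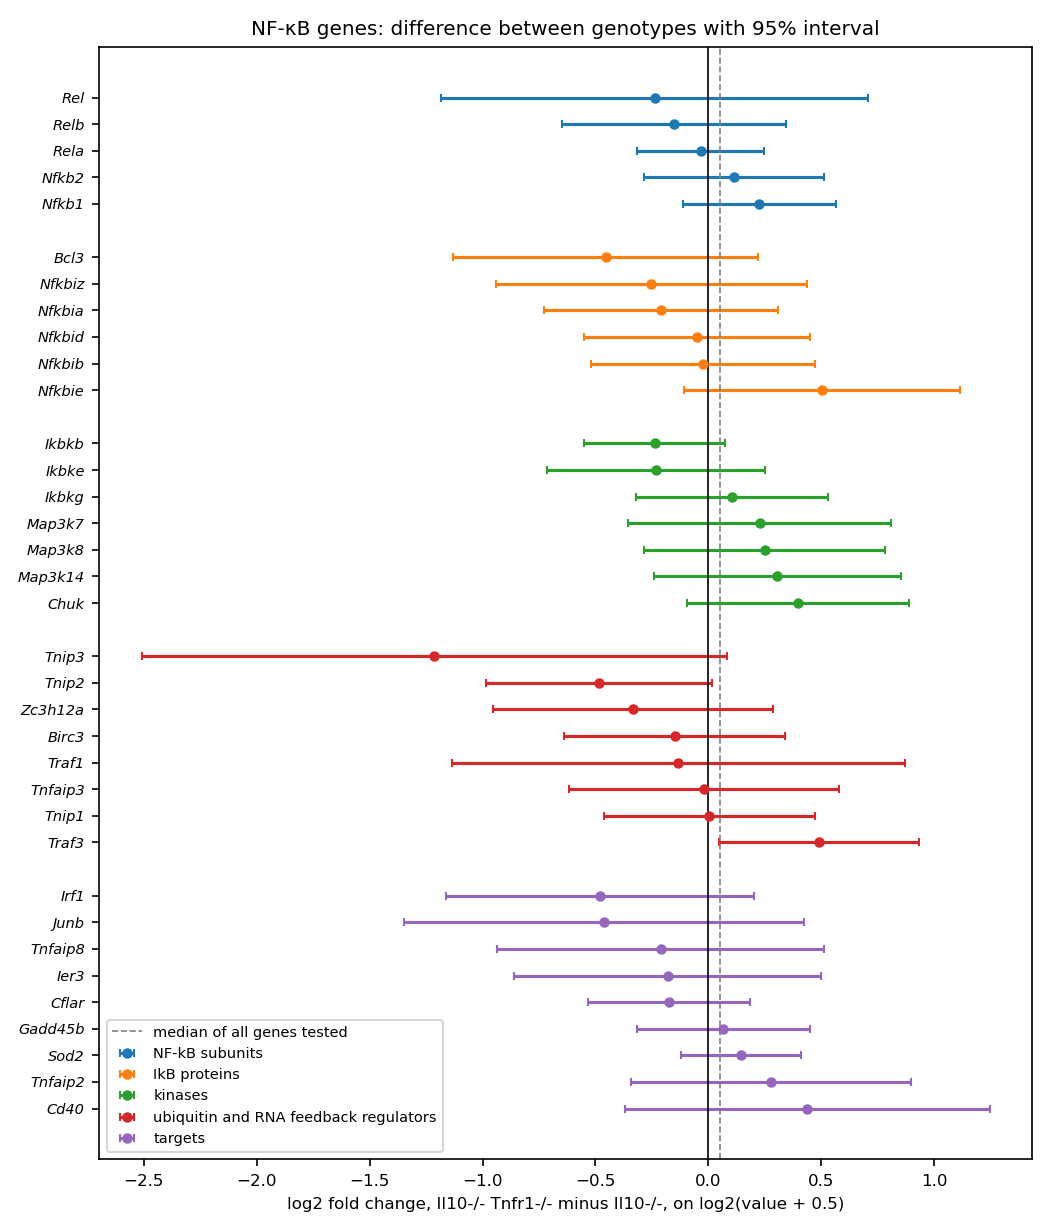
Log2 fold change (x axis, Il10-/- Tnfr1-/- minus Il10-/-) with its 95% interval for each of the 35 genes (y axis), grouped by role; the dashed line is the median of all genes tested. The estimates run from -1.21 (Tnip3) to 0.50 (Nfkbie), and only the interval of Traf3 lies wholly on one side of 0.

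The 5 subunits were detected in every library and none passed a threshold between the genotypes. Nfkb1 and Nfkb2 encode p105 and p100, precursors that are processed to p50 and p52, and Rela, Relb and Rel encode the subunits with a transactivation domain. Their median log2 fold change was -0.03, with 2 positive and 3 negative estimates.

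Rela, the p65 subunit of the canonical dimer, lies at chr19:5637483-5648130 on the plus strand of mm10. Its abundance in Il10-/- replicates 1, 2, 3, 5 and 6 was 18.9, 13.5, 18.7, 15.1 and 18.4, and in Il10-/- Tnfr1-/- it ran from 15.4 through a median of 16.3 to 17.7. All Il10-/- Tnfr1-/- libraries lay inside the Il10-/- range. The means were 16.9 ± 2.43 (SD, n = 5) and 16.4 ± 0.922 (SD, n = 6), a log2 fold change of -0.03 ± 0.13 with a 95% interval of -0.32 to 0.25.

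Nfkb1 (chr3:135584655-135691547, minus strand) had abundances of 22.9, 21.3, 18.9, 22.1 and 15.7 in the Il10-/- replicates. In Il10-/- Tnfr1-/- the lowest, median and highest were 18.3, 23.7 and 29.6. The groups overlapped, with 4 of the 6 Il10-/- Tnfr1-/- libraries above every Il10-/- library. The estimate was a log2 fold change of 0.23 ± 0.16 (limma, unadjusted p = 0.174, adjusted p = 0.561).

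Relb (chr7:19606217-19629438, minus strand), the main partner of p52 in the alternative pathway, had Il10-/- abundances of 16.03, 19.1, 27.6, 27.7 and 32.2. In Il10-/- Tnfr1-/- it ran from 15.1 through 21.9 to 30.6. The ranges nearly coincided, and the log2 fold change was -0.15 ± 0.23 (limma adjusted p = 0.763). The sign depended on which libraries were compared: among the 5 whose sample names start with 1 (3 Il10-/- and 2 Il10-/- Tnfr1-/-), it was 0.42 ± 0.30. The labels do not say what the leading digit of a name stands for. Names that start with 2 or 3 were all Il10-/- Tnfr1-/-, and those used that start with 4 were all Il10-/-. Outside names that start with 1, the digit and the genotype therefore cannot be told apart.

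Rel, the subunit typical of lymphocytes, was at 7.73 in Il10-/- replicate 1 and between 0.732 and 1.97 in the other 10 libraries of both genotypes. Nfkb2 was nearly level, with a log2 fold change of 0.12 ± 0.18. Within a library the log2 ratio of Nfkb2 to Nfkb1 was -0.77 ± 0.30 in Il10-/- (SD, n = 5), against -0.88 ± 0.28 in Il10-/- Tnfr1-/- (SD, n = 6), so the difference of -0.11 was smaller than the spread within either genotype.

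Among the 6 IκB proteins 5 had a negative log2 fold change and 1 a positive one, with a median log2 fold change of -0.13. None passed either threshold. Nfkbia, which encodes IκBα, the rapidly resynthesized inhibitor that ends a pulse of canonical signalling, lies at chr12:55489410-55492647 on the minus strand, and its promoter is the one shown above with a single match close to the start. Its abundance was 67.9, 35.2, 45.6, 51.5 and 96.4 in the Il10-/- replicates, and 40.0, 46.7 and 66.3 at the lowest, median and highest of Il10-/- Tnfr1-/-. Both the lowest and the highest library were Il10-/-, and all 6 Il10-/- Tnfr1-/- values fell between them. The means of 59.3 ± 23.9 (SD, n = 5) and 48.9 ± 9.55 (SD, n = 6) gave a log2 fold change of -0.21 ± 0.24, with a 95% interval of -0.73 to 0.31 (limma adjusted p = 0.693). With a smooth muscle marker score as a covariate the estimate was 0.05 ± 0.26, and with a colon epithelium marker score instead it was -0.21 ± 0.22.

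The log2 ratio of Nfkbia to Rela within a library is independent of scaling between libraries. It was 1.85, 1.38, 1.29, 1.77 and 2.39 in the Il10-/- replicates and 1.30 to 2.01 in Il10-/- Tnfr1-/-. The means were 1.74 ± 0.44 and 1.56 ± 0.28 (SD), and their difference of -0.18 was smaller than either SD. Among names that start with 1 the difference was 0.0147.

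Bcl3 (chr7:19808462-19822770, minus strand) encodes a nuclear IκB protein that binds p50 and p52 homodimers at DNA. It had abundances of 55.8, 27.5, 27.2, 44.0 and 84.7 in Il10-/-, and ran from 18.2 through 32.3 to 44.6 in Il10-/- Tnfr1-/-. Il10-/- replicates 1 and 6 stood above all Il10-/- Tnfr1-/- libraries, and the other 3 lay among them. Bcl3 had a log2 fold change of -0.45 ± 0.31 (95% interval -1.13 to 0.22, limma adjusted p = 0.558), and it was -0.05 ± 0.32 once the smooth muscle score was in the model. With the colon epithelium score instead, the Bcl3 estimate was -0.46 ± 0.27.

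Nfkbie (chr17:45555703-45563169, plus strand), which encodes IκBε, was low and tight in Il10-/-, at 1.60, 1.21, 1.63, 1.61 and 1.54. In Il10-/- Tnfr1-/- it ran from 1.49 through 1.90 to 4.36. Replicates 2 and 3 of Il10-/- Tnfr1-/-, at 4.18 and 4.36, set the higher mean, and the other 4 lay between 1.49 and 2.11. The log2 fold change was 0.50 ± 0.28 (limma, unadjusted p = 0.0984, adjusted p = 0.536). Those same libraries, with 145.2 and 71.2 against 3.10 to 24.9 elsewhere, had the highest summed B cell markers, of which 1 of 6 was tested. They also had the highest summed T cell markers, 44.8 and 23.4 against 5.19 to 14.2 elsewhere, of which 4 of 7 were tested. Replicate 3 had the highest macrophage and endothelium sums as well, 129 and 65.5, whereas replicate 2 had 86.7 and 15.5. The part of these cell types in the Nfkbie values was not tested. In bulk tissue a change in cell numbers and a change in RNA per cell cannot be told apart. Nfkbiz and Nfkbid, 2 nuclear IκB proteins, had log2 fold changes of -0.25 ± 0.32 and -0.05 ± 0.23, and Nfkbib, which encodes IκBβ, -0.02 ± 0.23.

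The 7 kinases had the highest role median, 0.23, with 5 positive and 2 negative estimates, and none passed a threshold. Chuk and Ikbkb encode the catalytic subunits IKKα and IKKβ of the IκB kinase complex, and their estimates had opposite signs. Chuk (chr19:44073335-44107480, minus strand) was at 35.6, 31.8, 21.5, 22.4 and 19.5 in Il10-/-, and at 27.2, 31.6 and 58.7 at the lowest, median and highest of Il10-/- Tnfr1-/-. Il10-/- replicates 3, 5 and 6 were below all Il10-/- Tnfr1-/- libraries, whereas replicates 1 and 2 were inside their range. Chuk had a log2 fold change of 0.40 ± 0.23 (95% interval -0.09 to 0.89, limma adjusted p = 0.537). Among the libraries whose names start with 1 it was 0.06 ± 0.28.

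Ikbkb (chr8:22659212-22706589, minus strand) was at 23.4, 24.3, 21.7, 30.1 and 32.0 in Il10-/-. It ran from 19.1 through 21.7 to 26.2 in Il10-/- Tnfr1-/-. Il10-/- replicates 5 and 6 lay above every other library and the rest overlapped. Ikbkb had a log2 fold change of -0.24 ± 0.14 (95% interval -0.55 to 0.07, limma adjusted p = 0.537). Among the libraries whose names start with 1, which leave out those 2, it was -0.03.

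Ikbkg, which encodes the regulatory subunit NEMO, had a log2 fold change of 0.11 ± 0.20. Ikbke, an IKK-related kinase better known for interferon responses, had -0.23 ± 0.22. The upstream kinases Map3k7 (TAK1), Map3k8 (TPL2) and Map3k14 (NIK, the kinase of the alternative pathway) had 0.23 ± 0.27, 0.25 ± 0.25 and 0.30 ± 0.25. Map3k8 had the lowest mean abundance of all members, 1.12 over all libraries.

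The feedback regulators and adaptors held the members with the smallest p and the largest estimate. Their median log2 fold change was -0.14, with 2 positive and 6 negative estimates. Traf3 (chr12:111166370-111267153, plus strand) encodes an adaptor that keeps NIK unstable and so restrains the alternative pathway. Its abundance was 3.57, 3.42, 3.08, 2.34 and 2.39 in Il10-/-, and 3.63 to 6.32, with a median of 3.74, in Il10-/- Tnfr1-/-. The genotypes did not overlap, as for 0.575% of all genes tested, but the gap between 3.57 and 3.63 was narrow, and replicates 3 and 4 of Il10-/- Tnfr1-/- (6.32 and 5.35) stood above the rest. The means were 2.96 ± 0.575 (SD, n = 5) and 4.41 ± 1.15 (SD, n = 6), a log2 fold change of 0.49 ± 0.20 with a 95% interval of 0.05 to 0.93 (limma, unadjusted p = 0.0321, adjusted p = 0.536).

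Replicates 3 and 4 also had the highest summed smooth muscle markers, 8010 and 7143, and Il10-/- replicates 5 and 6, with the lowest Traf3, had the lowest sums, 184.4 and 201.3. The libraries between them did not follow that order. Il10-/- replicate 3 had a sum of 3505 with Traf3 at 3.08. Il10-/- Tnfr1-/- replicates 2 and 6 had sums of 854.5 and 827.7 with Traf3 at 3.68 and 3.74. All 10 smooth muscle markers had a higher mean in Il10-/- Tnfr1-/-, and the sums ran from 184.4 to 3505 in Il10-/- and from 827.7 to 8010 in Il10-/- Tnfr1-/-. With the marker score as a covariate the Traf3 estimate was 0.23 ± 0.20, and among names that start with 1 it was 0.13. With a colon epithelium marker score as the covariate instead, the Traf3 estimate was 0.49 ± 0.17. In the fit without a covariate the unadjusted p of Traf3 was no longer under 0.05 without Il10-/- replicate 5 or 6. The same held without Il10-/- Tnfr1-/- replicate 3 or 4. The smooth muscle covariate moved other named members both ways. The estimates of Tnip2 (-0.61 ± 0.28), Chuk (0.47 ± 0.28), Nfkbie (0.54 ± 0.33) and Rela (-0.10 ± 0.16) grew in size with it. Those of Relb (-0.02 ± 0.27), Ikbkb (-0.11 ± 0.17) and Tnip3 (-0.91 ± 0.72) shrank, as did those of Nfkbia, Bcl3 and Irf1. Nfkb1 (0.23 ± 0.20) and Sod2 (0.14 ± 0.15) hardly moved.

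**Figure D2:**
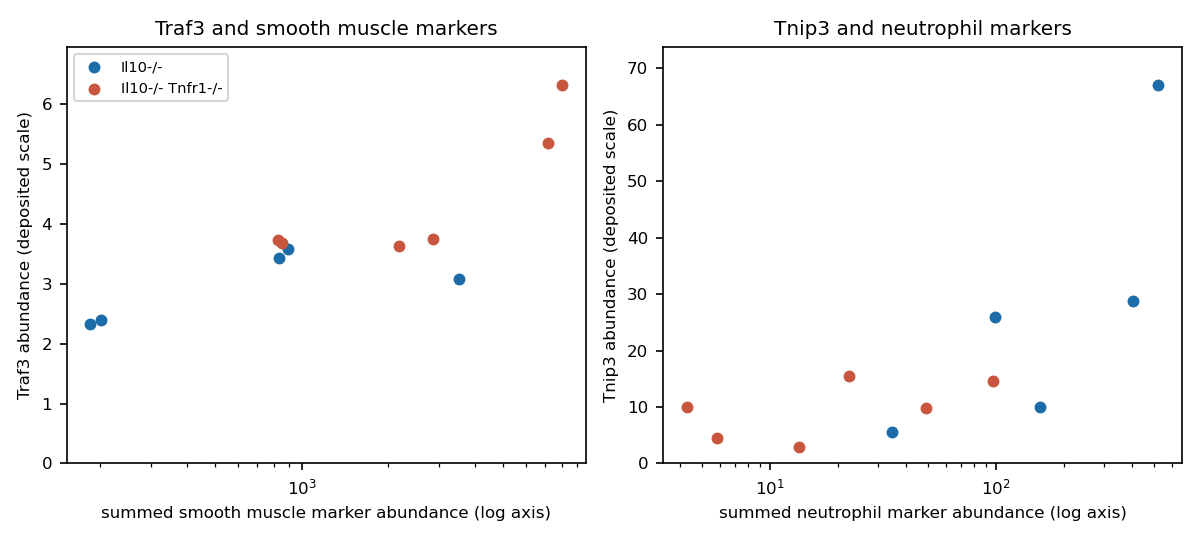
Abundance of Traf3 against the summed smooth muscle markers and of Tnip3 against the summed neutrophil markers (log x axes), 1 point per library, coloured by genotype. Il10-/- Tnfr1-/- replicates 3 and 4 are high on both axes for Traf3, and the neutrophil sum that places Il10-/- replicate 1 farthest right for Tnip3 is mostly 1 marker, Ly6g (437.6 of 521.5).

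Tnip1, Tnip2 and Tnip3 encode the ABIN proteins, which bind the ubiquitin-editing enzyme A20 (Tnfaip3) and dampen signalling. Tnip2 (chr5:34496087-34513991, minus strand) was at 8.93, 8.50, 12.0, 10.9 and 14.7 in Il10-/-, and ran from 3.91 through 8.29 to 9.55 in Il10-/- Tnfr1-/-. Il10-/- replicates 3, 5 and 6 were above all Il10-/- Tnfr1-/- libraries, and replicates 1 and 2 were among them. The means of 11.01 ± 2.53 (SD, n = 5) and 7.85 ± 2.05 (SD, n = 6) gave a log2 fold change of -0.49 ± 0.23 (95% interval -0.99 to 0.01, limma, unadjusted p = 0.0559, adjusted p = 0.536).

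Tnip3 (chr6:65525313-65634040, plus strand) was singled out after its values were seen, for the estimate farthest from 0. It was at 67.1, 5.56, 10.01, 26.0 and 28.8 in Il10-/-, and at 2.84, 9.95 and 15.5 at the lowest, median and highest of Il10-/- Tnfr1-/-. Il10-/- replicates 1, 5 and 6 exceeded every Il10-/- Tnfr1-/- library, and replicates 2 and 3 lay within their range. The log2 fold change was -1.21 ± 0.60 (95% interval -2.51 to 0.08, limma, unadjusted p = 0.0641, adjusted p = 0.536). It was -0.78 without Il10-/- replicate 1 and -1.65 without Il10-/- replicate 2.

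Summed neutrophil markers were 521.5, 34.8, 156.9, 98.5 and 401.1 in the Il10-/- replicates and between 4.28 and 97.1 in Il10-/- Tnfr1-/-. Of those 10 markers 3 were tested, all with a negative log2 fold change, 5 were at 0 in some library and 1 was at 0 in every library. Another 3 of the 10, Mpo, Ngp and Retnlg, had a higher raw mean in Il10-/- Tnfr1-/-, and none of these was tested. One marker, Ly6g, made up 437.6 of the 521.5 in Il10-/- replicate 1, the library with the highest Tnip3. Without Ly6g the sums were 84.0, 24.2, 17.4, 21.9 and 229.6 in Il10-/- and between 1.33 and 30.3 in Il10-/- Tnfr1-/-, and Il10-/- replicate 6 was highest. The part of neutrophils in the Tnip3 values was not tested.

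Tnip1 differed by a log2 fold change of only 0.00 ± 0.21. Tnfaip3, which encodes A20, was at 11.9, 4.67, 4.11, 8.76 and 6.47 in Il10-/- and between 4.99 and 10.5 in Il10-/- Tnfr1-/-, with a log2 fold change of -0.02 ± 0.28. Its Il10-/- values enclosed all 6 Il10-/- Tnfr1-/- values. The ubiquitin ligase cIAP2 (Birc3) and the adaptor Traf1 had log2 fold changes of -0.15 ± 0.23 and -0.13 ± 0.46.

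Zc3h12a, which encodes Regnase-1, a nuclease that degrades inflammatory mRNAs, was also singled out after its values were seen. It was at 29.3, 8.73, 8.48, 16.3 and 18.03 in Il10-/- and between 8.55 and 13.4 in Il10-/- Tnfr1-/-. The 6 Il10-/- Tnfr1-/- values lay within the Il10-/- range. The log2 fold change was -0.33 ± 0.29 (limma adjusted p = 0.608).

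**Figure D3:**
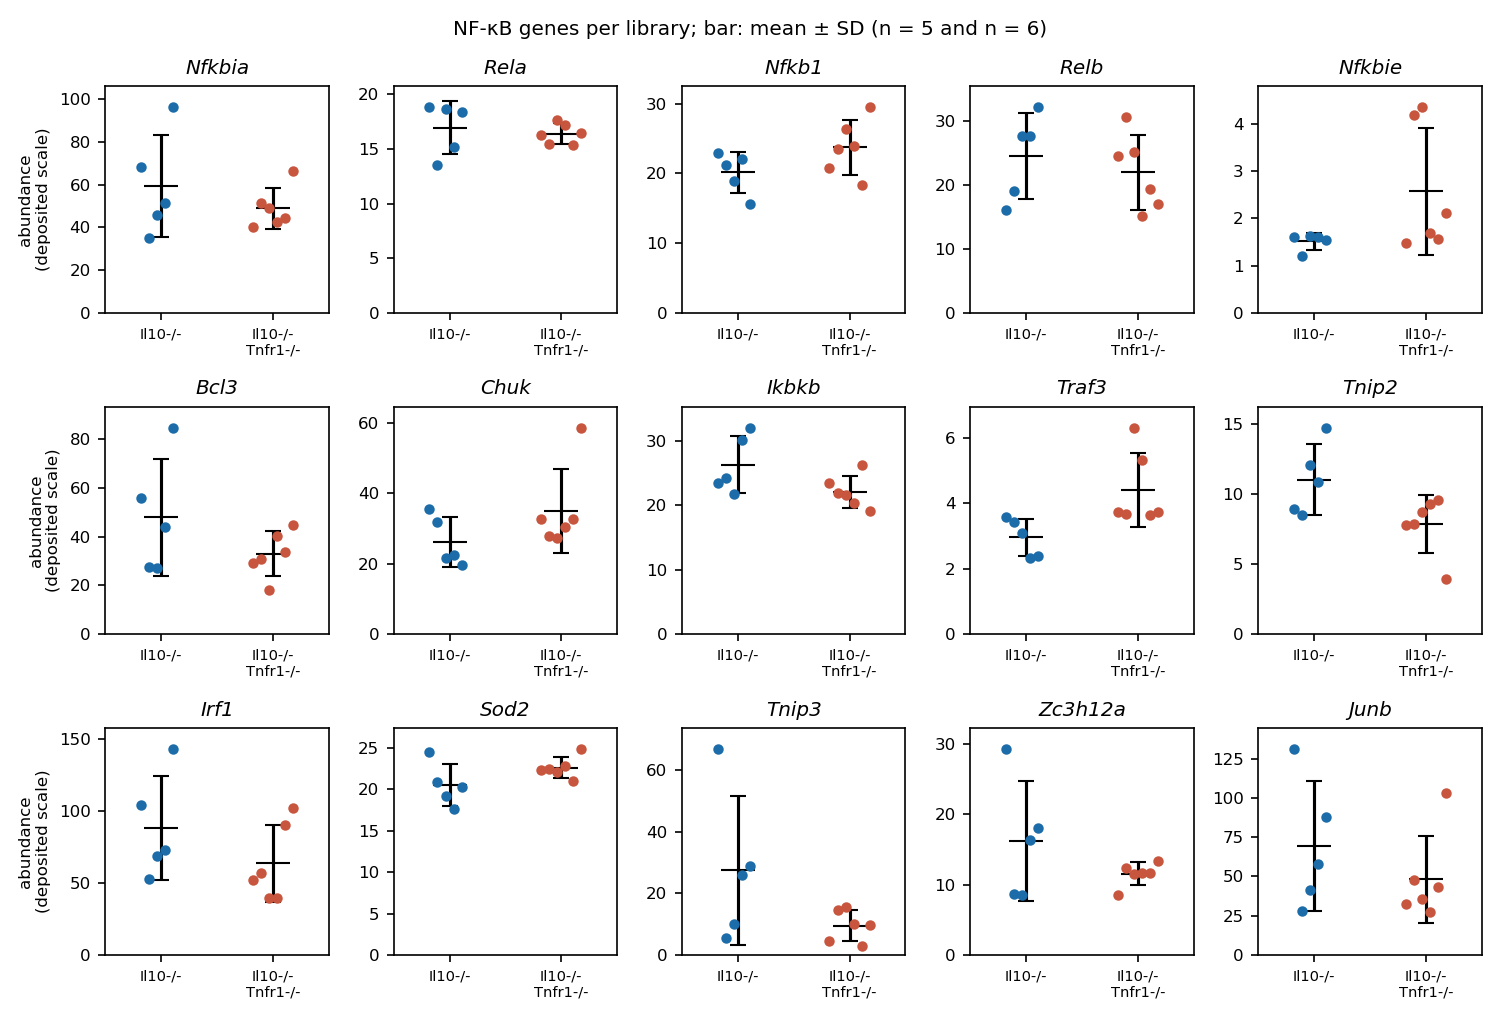
Abundance (y axes, from 0) of 15 members in each library, with the mean and SD of 5 Il10-/- and 6 Il10-/- Tnfr1-/- mice. Traf3 is the panel without overlap between genotypes, and Il10-/- replicate 1 stands highest for Tnip3 at 67.1, Zc3h12a at 29.3 and Junb at 131.3.

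The 9 targets had 4 positive and 5 negative log2 fold changes, a median log2 fold change of -0.18, and no gene past either threshold. Irf1 (chr11:53770014-53778374, plus strand), an interferon regulatory factor and a known target of NF-κB, had the highest mean abundance of all members, 75.0 over all libraries. It was at 104.6, 52.5, 68.8, 73.0 and 143.5 in Il10-/-, and at 39.8, 54.7 and 102.4 at the lowest, median and highest of Il10-/- Tnfr1-/-. Il10-/- replicates 1 and 6 were highest, replicates 5 and 6 of Il10-/- Tnfr1-/- followed, and the rest overlapped. For Irf1 the log2 fold change was -0.48 ± 0.31 (95% interval -1.16 to 0.20, limma adjusted p = 0.547), and it was -0.07 ± 0.32 once the smooth muscle score was in the model. With the colon epithelium score instead, the Irf1 estimate was -0.48 ± 0.23.

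Sod2 (chr17:13006846-13040063, plus strand) encodes the mitochondrial superoxide dismutase. It was at 24.6, 20.9, 19.2, 17.7 and 20.3 in Il10-/- and ran from 21.05 through 22.4 to 24.9 in Il10-/- Tnfr1-/-. Il10-/- replicates 2, 3, 5 and 6 lay below all Il10-/- Tnfr1-/- libraries, but replicate 1 lay near the top of them. Sod2 had a log2 fold change of 0.14 ± 0.12 (95% interval -0.12 to 0.41, limma adjusted p = 0.606), with the smallest SE of the 35.

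Junb, an AP-1 subunit that is an immediate early gene as well, spread widely and was singled out after its values were seen. It was at 131.3, 28.3, 41.6, 58.1 and 87.6 in Il10-/- and ran from 27.5 through 39.6 to 102.8 in Il10-/- Tnfr1-/-. One library of each genotype, Il10-/- replicate 1 and Il10-/- Tnfr1-/- replicate 6, lay above 100. For Junb the log2 fold change was -0.46 ± 0.41 (limma adjusted p = 0.614). Fos, another AP-1 gene, was highest in the same libraries, at 219.2 and 101.6.

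The survival genes Cflar (c-FLIP) and Ier3 had log2 fold changes of -0.18 ± 0.17 and -0.18 ± 0.31, and the stress gene Gadd45b 0.07 ± 0.18. Tnfaip2 and Tnfaip8, first found as TNF-induced transcripts, had 0.28 ± 0.29 and -0.21 ± 0.33. Tnfaip8 was at 75.0 in Il10-/- replicate 1 and at 37.8 or less elsewhere. Cd40, the costimulatory receptor of B cells and macrophages, had 0.44 ± 0.37 at means of 1.02 ± 0.566 (SD, n = 5) and 1.65 ± 1.19 (SD, n = 6).

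How far these data limit a change can be read from the intervals. For 27 of the 35 genes the 95% interval lay within 1 log2 unit of 0 on the scale of log2(abundance + 0.5). The other 8 were Bcl3, Cd40, Irf1, Junb, Nfkbie, Rel, Tnip3 and Traf1. For members of high abundance 1 unit is close to 2-fold in either direction. At low abundance the added 0.5 shrinks the difference, and 1 unit is more than 2-fold in abundance. With 0.1 added instead, the estimate of Traf3 was 0.55 rather than 0.49. The SE ran from 0.12 for Sod2 through a median of 0.24 to 0.60 for Tnip3.

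The highest values gathered in a few libraries of both genotypes. Of the 35, 9 were highest in Il10-/- replicate 1, 9 in Il10-/- replicate 6, 8 in Il10-/- Tnfr1-/- replicate 3 and 6 in Il10-/- Tnfr1-/- replicate 6, so that 4 of the 11 libraries held the maximum of 32 genes. The other 3 (Traf1, Gadd45b and Cd40) were highest in Il10-/- Tnfr1-/- replicate 2. The genes differed by library. Il10-/- replicate 1 led for Rel, Rela, Nfkbiz, Tnfaip3, Tnip3, Birc3, Zc3h12a, Tnfaip8 and Junb, whereas Il10-/- replicate 6 led for Relb, Nfkbia, Nfkbid, Bcl3, Ikbkb, Ikbke, Tnip2, Cflar and Irf1. Il10-/- Tnfr1-/- replicate 3 led for Nfkb2, Nfkbie, Ikbkg, Map3k7, Map3k8, Map3k14, Traf3 and Tnfaip2.

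**Figure D4:**
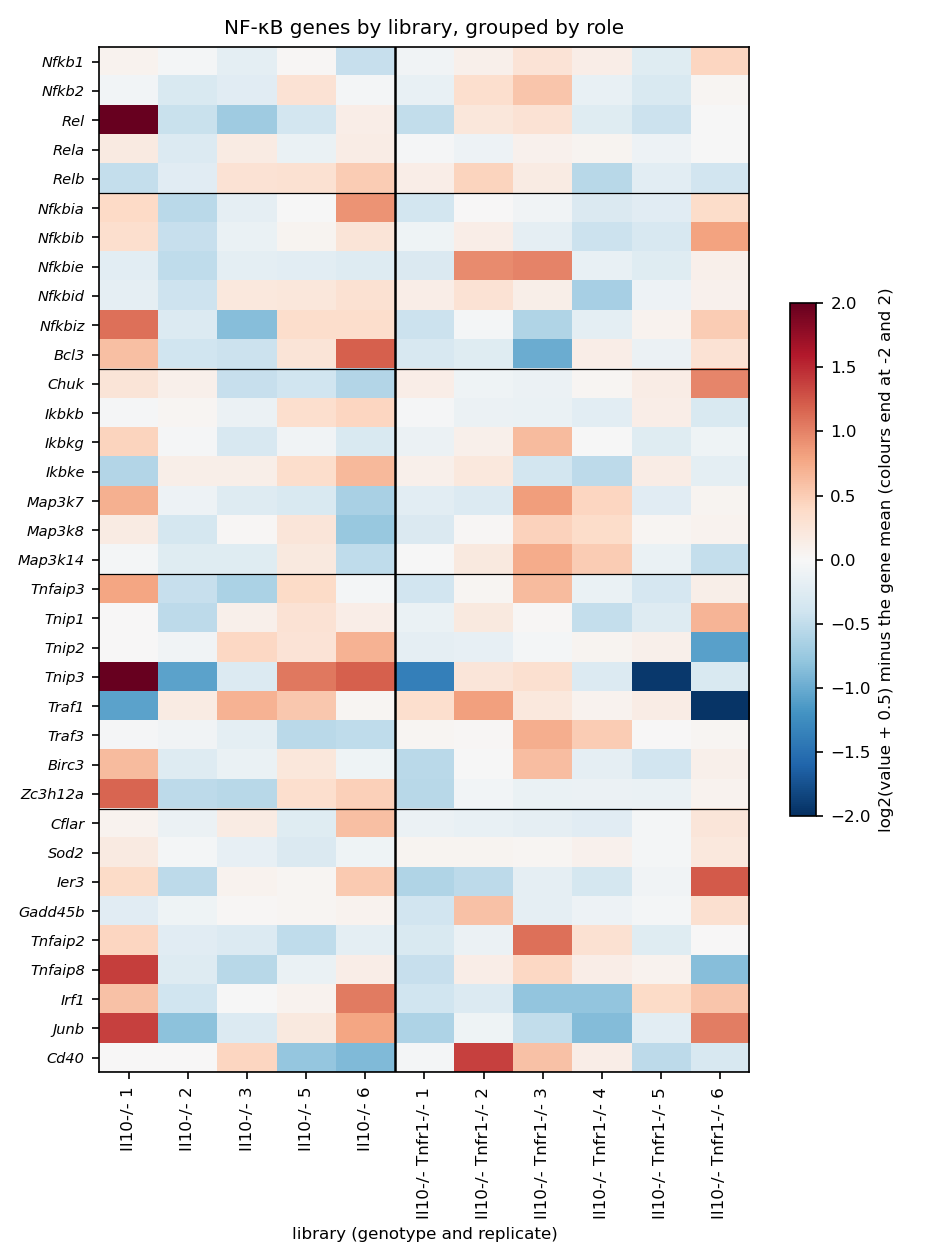
Log2(abundance + 0.5) minus the gene's mean for 35 genes (y axis, by role) in 11 libraries (x axis, by genotype); the colours end at -2 and 2. Il10-/- replicates 1 and 6 and Il10-/- Tnfr1-/- replicates 3 and 6 hold the highest value of 32 genes.

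Il10-/- Tnfr1-/- replicate 6 had summed colon epithelium markers of 56600, against 8070 to 22930 in the other 10 libraries. Car1 alone made up 32160 of the 56600, and without Car1 the sum was 24440, against 21720 in Il10-/- replicate 6. Its small intestine marker sum of 1651 was Fabp2 at 1640 and 11.3 for the other 6 markers. All 13 colon epithelium markers were over 1 in every library. Macrophage marker sums ran from 51.4 to 83.8 in Il10-/- and from 70.2 to 129 in Il10-/- Tnfr1-/-. Of the 8 macrophage markers 7 had a higher raw mean in Il10-/- Tnfr1-/-, and all 8 had a positive log2 fold change. The part of these differences in the members' values was not tested beyond the covariate fits.

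At the level of single transcripts, 74 of the 226 transcripts listed for the members were tested, from 33 genes. At an unadjusted p under 0.05, 1 was higher and 2 were lower in Il10-/- Tnfr1-/-, against 6.27% of all transcripts tested in either direction, and none passed the adjusted threshold (smallest limma adjusted p = 0.646). The higher one was the Chuk transcript ENSMUST00000119591.1, with a log2 fold change of 0.78 ± 0.34 (limma, unadjusted p = 0.0442). The lower ones were the Tnip2 transcript ENSMUST00000087737.9 at -0.68 ± 0.29 (limma, unadjusted p = 0.0391) and the Tnip3 transcript ENSMUST00000114236.1 at -1.18 ± 0.52 (limma, unadjusted p = 0.0431). Rela was listed wholly on 1 transcript, and the leading Nfkbia transcript, ENSMUST00000021413.8, held 96.7% of the gene in Il10-/- and 97.9% in Il10-/- Tnfr1-/-.

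Bcl3 and Irf1 were each split between 2 protein-coding transcripts, and both splits varied widely between libraries. The Bcl3 transcript ENSMUST00000135609.7 held 22.1%, 43.9%, 69.1%, 52.2% and 78.3% of Bcl3 in Il10-/- replicates 1, 2, 3, 5 and 6. In Il10-/- Tnfr1-/- replicates 1 to 6 it held 39.3%, 44.3%, 16.5%, 18.5%, 53.5% and 38.5%. Il10-/- replicates 3 and 6 were high and Il10-/- replicate 1 was low, as were Il10-/- Tnfr1-/- replicates 3 and 4.

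The Irf1 transcript ENSMUST00000108920.8 ran broadly the other way, with 86.3%, 48.4%, 24.9%, 59.7% and 22.4% of Irf1 in Il10-/- and 63.7%, 60.2%, 68.2%, 75.4%, 51.5% and 71.7% in Il10-/- Tnfr1-/-. The same Il10-/- replicates 3 and 6 were at the low end and replicate 1 at the high end. ENSMUST00000184550.7, an Nfkb1 transcript annotated for nonsense-mediated decay, was 5.4% of Nfkb1 in Il10-/- replicate 1, 67.8% in Il10-/- replicate 6, and 0.0% to 38.4% in Il10-/- Tnfr1-/-. The share of all transcripts listed at 0 was 43.2%, 42.1% and 41.7% in Il10-/- replicate 1 and Il10-/- Tnfr1-/- replicates 3 and 4, and 50.9% and 55.1% in Il10-/- replicates 3 and 6. Il10-/- replicate 5 was at 51.0%, close to Il10-/- replicate 3, but its shares of those Bcl3 and Irf1 transcripts were 52.2% and 59.7%. The remaining libraries ran from 46.7% to 49.8%. The Traf3 transcript ENSMUST00000021706.10 ran from 0.0% to 62.5% of Traf3 in Il10-/- and from 13.9% to 70.9% in Il10-/- Tnfr1-/-. The Relb transcript ENSMUST00000098754.4 ran from 0.0% to 32.0% of Relb in Il10-/- and from 0.0% to 78.4% in Il10-/- Tnfr1-/-. What moves these shares was not tested.

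Nfkb2, taken up after its shares were seen, had the transcript ENSMUST00000073116.11 at 84.9% ± 9.95 of the gene in Il10-/- (SD, n = 5), against 76.8% ± 4.13 in Il10-/- Tnfr1-/- (SD, n = 6). Apart from Il10-/- replicate 1 at 67.4%, the Il10-/- values of 87.1% to 91.6% were above all Il10-/- Tnfr1-/- values of 70.8% to 82.5%. Its minor transcript ENSMUST00000111881.2 had a log2 fold change of 0.72 ± 0.34 (limma, unadjusted p = 0.0553, adjusted p = 0.646).

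**Figure D5:**
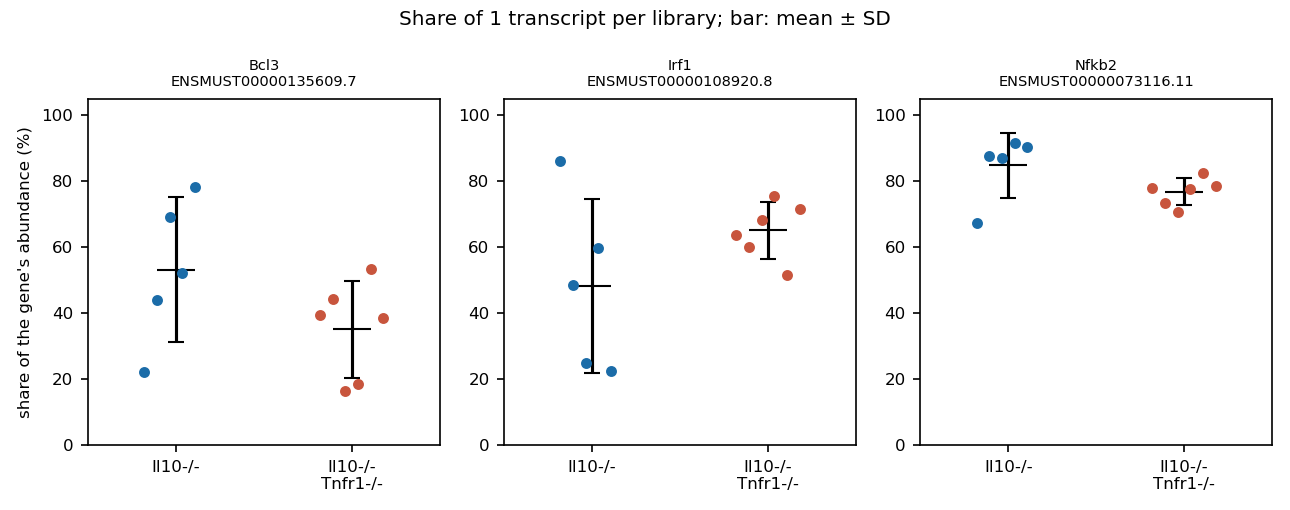
Share of the gene's abundance (y axis, percent) on ENSMUST00000135609.7 for Bcl3, ENSMUST00000108920.8 for Irf1 and ENSMUST00000073116.11 for Nfkb2, 1 point per library by genotype. The Bcl3 and Irf1 shares span 22.1% to 78.3% and 22.4% to 86.3% within Il10-/- alone.

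The authors' deposited table gives its own p-value for 111 of the members' transcripts. By the authors' deposited table a p under 0.05 was reached by 5 of them, 1 with a higher value, and by 6.83% of all 43192 transcripts with a p. The smallest p in the authors' deposited table was 0.0025, for the Tnip1 transcript ENSMUST00000102731.7, with a log2 fold of 2.13. The other 4 in the authors' deposited table were 2 Tnip3 transcripts and the Bcl3 and Tnip2 transcripts named above, all lower, and the q-values of the members ran from 0.684 to 1.

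Genes around the members were described by lists of the same pathway. Of 36 other pathway components 35 were tested, 1 was higher and 1 lower at an unadjusted p under 0.05, and the median log2 fold change was 0.01. Card14, a scaffold of the CARD family that activates NF-κB in epithelium, was 13.3 ± 4.99 in Il10-/- (SD, n = 5), against 6.48 ± 1.96 in Il10-/- Tnfr1-/- (SD, n = 6), a log2 fold change of -0.95 ± 0.26 (limma, unadjusted p = 0.003, adjusted p = 0.536). Rnf11, a partner of A20, ran from 9.57 to 27.8 and from 22.7 to 43.7, a log2 fold change of 0.72 ± 0.26 (limma, unadjusted p = 0.0179, adjusted p = 0.536).

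Of 30 other inducible targets 19 were tested, 2 were higher and 3 lower at that threshold, and the median was 0.13. Over all genes tested 4.74% were higher and 3.6% lower. The higher targets were Ccl5 and Ptgs2, with log2 fold changes of 1.27 ± 0.49 and 0.91 ± 0.34. The lower ones were Cxcl1, Cxcl5 and Nos2. The neutrophil chemokine Cxcl1 was at 15.2, 0.895, 1.34, 4.84 and 13.5 in Il10-/- and between 0.125 and 1.99 in Il10-/- Tnfr1-/-. Il10-/- replicates 1, 5 and 6 were above all Il10-/- Tnfr1-/- libraries and the other 2 were not. Its log2 fold change was -2.26 ± 0.65 (limma, unadjusted p = 0.00444, adjusted p = 0.536).

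Nos2, the inducible nitric oxide synthase, was at 38.2, 3.69, 7.23, 37.0 and 28.0 in Il10-/- and between 1.84 and 6.59 in Il10-/- Tnfr1-/-. Only Il10-/- replicate 2 fell within the Il10-/- Tnfr1-/- range, and the log2 fold change was -1.75 ± 0.57 (limma, unadjusted p = 0.00926, adjusted p = 0.536). The estimates of this list ran from -2.65 to 1.27, against -1.21 to 0.50 for the 35 members. The difference between the lists was not tested.

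Of 22 immediate early genes 18 were tested, 1 was higher and none lower, and the median was -0.02. Klf2, a transcription factor of endothelium and lymphocytes, was 4.08 ± 0.999 in Il10-/- (SD, n = 5), against 7.26 ± 2.25 in Il10-/- Tnfr1-/- (SD, n = 6), a log2 fold change of 0.74 ± 0.23 (limma, unadjusted p = 0.00681, adjusted p = 0.536). Zfp36, which encodes the mRNA-destabilizing protein tristetraprolin, had -0.47 ± 0.32. Of 17 genes of the interferon gamma response 15 were tested, none passed in either direction, and the median was -0.10. The 2 with the smallest p, Ciita and Socs1, had log2 fold changes of 0.63 ± 0.38 and -0.54 ± 0.44.

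The members with a κB match in a promoter window were set beside those without one. The 13 with a match had a median log2 fold change of -0.02, with 6 positive and 7 negative estimates, and the 15 with a window but no match had -0.13, with 5 positive and 10 negative estimates. Traf3 and Tnip3, the members with the smallest p and the estimate farthest from 0, both carry a match, and their estimates have opposite signs.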

How the data were processed

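The authors deposited a table of transcript abundances, a never-negative signal per library; per the submitters' processing notes, CASAVA, kallisto, sleuth and mm10 were used, with no versions or settings given in the sources used here. The table's p-value, q-value and log2 fold columns hold the authors' comparison, per the file headers. The gap between the authors' mean on a natural log scale, per the file headers, and the log of the abundance rose with log transcript length (slope 1.19 over 14706 transcripts), so abundances are taken as divided by length and comparable between genes. Of 12 samples, 11 matched a column; 1 Il10-/- sample and 1 column of per-sample values matched nothing and were not used. After 866 repeated rows were dropped, 113193 transcripts were summed to 35688 genes. The main test was limma 3.58.1 (R 4.3.3; trend and robust) on log2(abundance + 0.5), two-sided, for genes over 1 in at least 5 libraries, Benjamini-Hochberg adjusted, threshold 0.05, and the same fit was made on transcripts. The fit was tested on simulated data. Coordinates and transcript types come from GENCODE M21 (mm10), which matched 221 of 226 member transcripts.

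Members and lists were chosen with earlier results of these data known. Nfkbia, Rela, the 2 members of smallest p in each role and any member without overlap between genotypes were described in most detail. Their Il10-/- values were given by replicate and their Il10-/- Tnfr1-/- values as lowest, median and highest. Shares were given for some, not all, of their transcripts with at least 10% of the gene. Of each pathway list, the 2 genes of smallest p were named, and of the inducible targets all those at an unadjusted p under 0.05. Replicates are numbered in sample order and pair nothing. Alternatives were other pseudocounts, filters, scalings, moderation, covariates, the libraries whose names start with 1, and leaving out each replicate.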

Additional observations from a re-analysis of the deposited data

Results flagged for a closer look

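Each gene was examined in each genotype for a library whose gap to the nearest other library was large relative to the range of the group (Dixon's 95% value). Of 70 such groups 12 had one. The nominal rate of about 1 in 20 holds for independent groups of normally distributed values. Abundances were examined here without a log, and the genes share the same libraries. The 12 therefore cannot be set against that rate. Of the 12, 6 lay in Il10-/- Tnfr1-/- replicate 6. There Chuk was high at 58.66 (next 32.78), Nfkbib at 37.93 (next 23.75), Ier3 at 33.14 (next 13.27), Cflar at 26.57 (next 21.83) and Junb at 102.8 (next 47.64), and Tnip2 was low at 3.912 (next 7.785). Its summed colon epithelium markers were 56600, of which Car1 made up 32160. Il10-/- replicate 1 was high for Rel at 7.727 (next 1.708), Tnfaip8 at 74.97 (next 31.18) and Tnfaip2 at 2.518 (next 1.463). Il10-/- Tnfr1-/- replicate 3 was high for Tnfaip2 at 4.328 (next 2.279) and Ikbkg at 13.16 (next 8.93). Nfkbie was low in Il10-/- replicate 2 at 1.208 (next 1.54).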

How the results depend on the processing

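No member passed an adjusted p of 0.05 under any of 23 alternatives, and the smallest adjusted p was 0.248 (limma, without Il10-/- replicate 1). Over all genes the count past it was 0, and 1 with quantile normalization (Tnfrsf1a); leaving out 1 replicate gave 0 to 2 (Tnfrsf1a and Il18 without Il10-/- replicate 2). Members higher at an unadjusted p under 0.05 numbered 1, and 0 with equal totals per library, quantile normalization, the smooth muscle covariate, the leading digit of the name as a factor, or names that start with 1; leaving out 1 replicate gave 0 to 2. Members lower numbered 0, and 1 (Tnip2) with median-ratio size factors, quantile normalization, the smooth muscle or the colon epithelium covariate; leaving out 1 replicate gave 0 to 2, with Tnip2 and Tnip3 without Il10-/- replicate 2. Over all genes the share higher at that threshold ran from 0.488% (names that start with 1) to 11% (without Il10-/- replicate 1), against 4.74% as reported, and the share lower from 0.581% to 7.14% in those same fits. Member transcripts at that threshold numbered 3, but 9 with no filter, 1 with equal totals, 5 without trend and robust moderation, 0 among names that start with 1, and 0 to 5 when 1 replicate was left out. The Nfkb2 to Nfkb1 difference was 0.22, and that of Nfkbia to Rela 0.0147, among names that start with 1, where a gene needed a value over 1 in 2 libraries only. The sign of Rela turned with equal totals (0.11) and without Il10-/- replicate 1 (0.00737) or 3 (0.00383), within a leave-one-out range of -0.108 to 0.00737, that of Nfkbia with the smooth muscle covariate (0.0494), and that of Relb with the first digit as a covariate and among names that start with 1 (0.42 in both). The other 293 of 299 estimates of named members kept their sign, and the cause of the changes was not tested. For named members the estimates with the leading digit as a factor equalled those among names that start with 1. For these estimates they are therefore not separate alternatives. Equal totals moved the median of all genes from 0.05 to 0.19 and gave 19 members a positive and 16 a negative estimate; median-ratio and quantile scaling moved it to -0.01 and -0.02 and gave 12 and 23. The smooth muscle covariate moved the median of all genes to -0.04 and gave 21 members a positive and 14 a negative estimate. Covariates were not run for transcripts. No paired analysis was possible because replicate numbers were given in sample order and pair no mice. Depth is unknown, and p-values measure the spread between these mice only.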
